A study of Mus musculus with 26 samples.

Results

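The Th1 and granzyme genes Tbx21, Ifng, Cxcr3, Ccl5, Ccl4, Gzma, Gzmb, Gzmk, Nkg7 and Eomes were followed in messenger RNA of T cells sorted by flow cytometry from Peyer's patches, the clusters of lymphoid follicles along the mouse small bowel. They are 10 of the 25814 genes in each library's table, taken by an exact match of the gene symbol, and all 10 were found in all 26 libraries. All libraries came from C57Bl/6 mice. CD4+ T cells were taken from mice on an elemental diet (n = 6) and from mice on a conventional diet (n = 6). An elemental diet supplies free amino acids instead of whole protein. A further pair of groups, both from the conventional diet, held T cells sorted as CD44+ (n = 7) or as CD44- (n = 7). CD44 is a surface receptor that rises on T cells after they meet antigen. The labels give no age, do not say that the CD44 sorts were gated on CD4, and do not say that replicates were separate animals, so p-values measure only the spread between these samples, which may be technical. The diet libraries started from 22 ng of RNA, while the CD44 libraries started from 1 ng and used another kit. Between these pairs of groups the cells sorted and the library kit cannot be told apart, and no test was made across them.

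Th1 cells are the CD4+ helper cells that secrete interferon gamma, and their programme is set by the transcription factor T-bet, the product of Tbx21. T-bet, with its relative Eomes, is known to activate Ifng and Cxcr3. Granzymes are serine proteases that cytotoxic T cells and NK cells store in granules and release into target cells. In the gut wall these genes are used by CD8 T cells, intraepithelial lymphocytes and NK cells as well as by part of the CD4+ cells, so a sort of T cells can hold their RNA from several sources.

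A diet library held 16401589 to 25415205 exon reads and a CD44 library 7180390 to 13378353. Of gene reads, 3.33% to 4.61% were intronic in the diet libraries and 9.39% to 29.0% in the CD44 libraries. The CD4+ libraries held Cd4 at 182 to 284 CPM (reads per 1000000 of the scaled library size) on the elemental diet and at 224 to 449 CPM on the conventional diet. In the CD44 libraries, Cd4 stood at 12.5 to 69.6 CPM in CD44+ cells and at 38.5 to 482 CPM in CD44- cells, while Cd3e, a subunit of the T cell receptor complex, stood at 1079 to 2894 CPM in CD44+ cells and at 588 to 1966 CPM in CD44- cells. Cd44 itself had 89.2 to 362 CPM in CD44+ cells and 47.5 to 139 CPM in CD44- cells. These ranges overlapped, and Cd44 was not called between them (log2 fold change 0.95 ± 0.40 SE, edgeR adjusted p = 0.303).

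Of the 10 genes, 6 were called lower on the elemental diet and 0 higher, where a call is a Benjamini-Hochberg adjusted p under 0.05 in edgeR's quasi-likelihood test over all 11938 genes tested. Over all genes tested, 7.75% were called lower and 9.68% higher. The genes that fell were Ifng, Ccl5, Gzmb, Gzmk, Gzma and Cxcr3, by 1.46-fold (Cxcr3) to 4.17-fold (Gzmb). Ifng and Ccl5 had no overlap between the diets, 2 of 10, against 2.35% of all genes tested that lay lower on the elemental diet with no overlap. The median log2 fold change was -0.96 over the 10 genes and -0.01 over all genes tested. Between CD44+ and CD44- cells, 7 of the 10 genes passed the filter on low counts and 0 were called. Over all 8343 genes tested there, 0.767% were called, 0.3% higher and 0.467% lower. In these sorted populations, fewer cells of a type and less RNA per cell cannot be told apart.

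**Figure D1:**
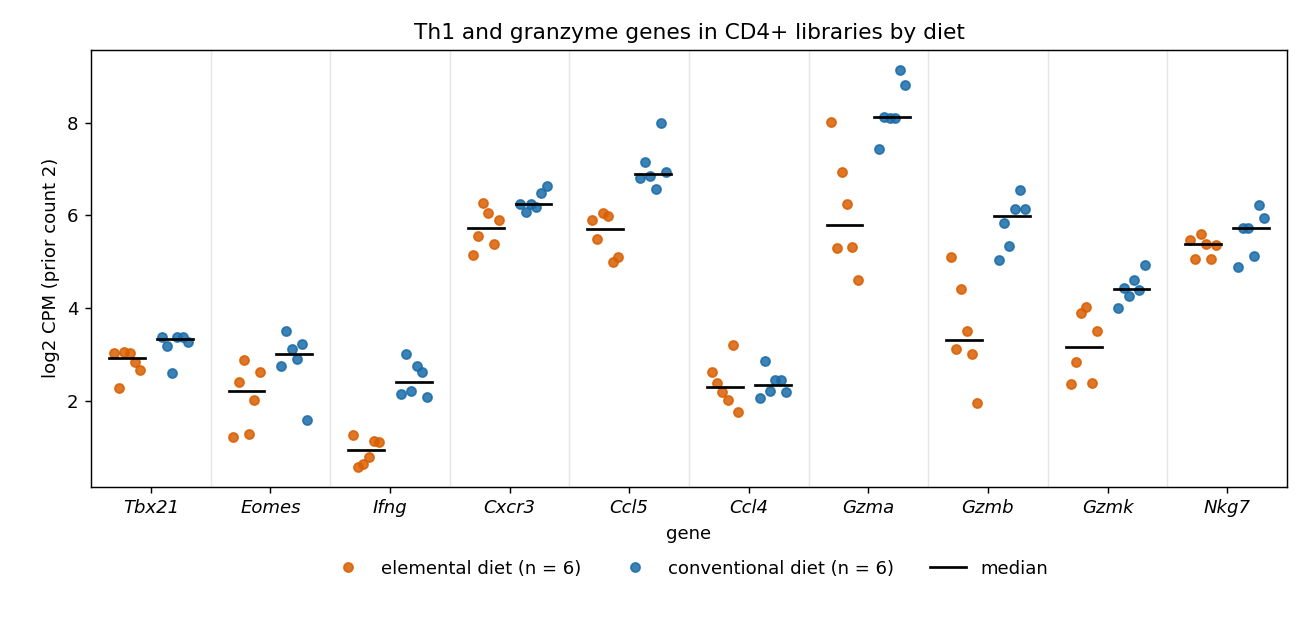
Level of each gene in each CD4+ library, as log2 CPM with a prior count of 2; points are libraries of the elemental diet (left of each pair, n = 6) and of the conventional diet (right, n = 6), and bars are medians. The elemental points of Ifng and Ccl5 all lie under the conventional points, Gzma and Gzmb each have 1 elemental library that reaches the conventional range, and Ccl4 is spread alike in both.

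Promoters are shown for Ifng, Gzmb and Gzmk, since these 3 genes fell on the elemental diet and kept the call with any 1 library left out. The sequences are the 250 bases before the start site in RefSeq on build GRCm38.p6, whose promoter table matched 8 of the 10 genes by symbol (all but Ccl4 and Ccl5). Capitals mark matches on either strand to 3 motifs, the T-box motif GGTGTGA, the Runx motif TGTGGT and the STAT motif TTCNNNGAA. The Ifng sequence is chr10:118440796-118441045 on the plus strand, with a STAT match. The Gzmb sequence is chr14:56262335-56262584 on the minus strand, with 2 Runx matches. The Gzmk sequence is chr13:113180966-113181215 on the minus strand, with a T-box match.
Ifng: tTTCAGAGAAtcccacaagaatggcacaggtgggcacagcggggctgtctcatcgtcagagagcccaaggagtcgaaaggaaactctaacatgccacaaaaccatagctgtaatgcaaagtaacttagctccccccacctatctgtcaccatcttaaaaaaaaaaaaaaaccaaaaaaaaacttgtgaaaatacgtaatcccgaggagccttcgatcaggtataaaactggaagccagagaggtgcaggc
Gzmb: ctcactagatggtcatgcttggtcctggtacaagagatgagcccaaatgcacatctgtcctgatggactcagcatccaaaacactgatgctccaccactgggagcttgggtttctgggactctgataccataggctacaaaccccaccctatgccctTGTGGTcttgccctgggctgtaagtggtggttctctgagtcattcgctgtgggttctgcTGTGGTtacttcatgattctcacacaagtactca
Gzmk: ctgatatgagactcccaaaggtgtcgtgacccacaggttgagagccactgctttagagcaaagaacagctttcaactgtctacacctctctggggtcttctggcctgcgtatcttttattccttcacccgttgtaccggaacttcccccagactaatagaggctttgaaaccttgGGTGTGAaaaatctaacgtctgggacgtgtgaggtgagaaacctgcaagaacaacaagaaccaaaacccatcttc
Among the other promoters, that of Nkg7 held a match to each of the 3 motifs, and those of Cxcr3 and Gzma a Runx match each. No matches overlapped each other in these genes. In the same window of all 32851 promoters in the table, 3.33% held the T-box motif, 14.05% the Runx motif and 7.02% the STAT motif, against 2, 4 and 2 of the 8 promoters matched. A match is a stretch of letters, and these data hold no measure of binding there. The RefSeq start of Gzmk at position 113180965 lies inside the gene as the deposited tables give it (chromosome 13, 113171608 to 113225908). That of Gzmb at position 56262334 lies outside the gene as given there (chromosome 14, 56258838 to 56262260). Bases after the start were found in a GENCODE transcript of the same gene for Tbx21, Ifng, Cxcr3, Gzma and Nkg7. They were not found for Gzmb, Gzmk and Eomes, so the start sites of these genes are less sure.

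The genes of the 2 transcription factors were lower in median on the elemental diet without passing the test. Tbx21, on chromosome 11 from 97098071 to 97115331 (ENSMUSG00000001444), had 4.77, 7.56 and 8.23 CPM as the lowest, median and highest of the elemental libraries, against 5.93, 9.91 and 10.3 CPM in the conventional libraries. All but 1 of the conventional libraries lay above every elemental one, and the exception, replicate 3, was the lowest of its group by a wide gap. Tbx21 differed by -0.38 ± 0.19 on the log2 scale (SE, edgeR adjusted p = 0.161). Eomes, the T-box factor of cytotoxic and memory T cells (chromosome 9, 118478212 to 118486132, ENSMUSG00000032446), had 2.24, 4.56 and 7.29 CPM on the elemental diet and 2.92, 8.01 and 11.3 CPM on the conventional diet. The groups overlapped, with 4 of 6 elemental libraries inside the conventional range, whose lowest value is conventional replicate 6. Eomes was not called (-0.78 ± 0.33, edgeR adjusted p = 0.115). Limma-voom with quality weights called it lower on all 12 libraries (-1.04 ± 0.29, adjusted p = 0.0132), and DESeq2 did not (-0.76 ± 0.34, adjusted p = 0.0857). By edgeR it was also called without conventional replicate 6 (-0.94 ± 0.29, adjusted p = 0.0214), and over the fits that left out 1 library the adjusted p ran from 0.0214 to 0.232.

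Ifng, the gene of interferon gamma and the defining cytokine of Th1 cells, fell on the elemental diet. It lies on chromosome 10 from 118441046 to 118445892 (ENSMUSG00000055170). The elemental libraries held 1.39, 1.84 and 2.29 CPM (lowest, median and highest, 26 to 45 reads a library), against 4.13, 5.27 and 8.01 CPM in the conventional libraries (68 to 194 reads). Every elemental library lay below every conventional one, and the spread was narrow in both groups. Ifng changed by -1.63 ± 0.25 on the log2 scale (3.09-fold lower, 95% interval -2.15 to -1.10, edgeR adjusted p = 6.35e-04). The gene overlaps AC153498.1, an unassigned transcript model on the same strand, and 85.5% of Ifng's exon reads were uniquely matched. With unique exon reads alone the change was -1.52 ± 0.26 (adjusted p = 0.00120), and over all alternatives with the 2 diet groups alone it kept the call.

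Cxcr3, the receptor through which Th1 and cytotoxic T cells follow interferon-induced chemokines (chromosome X, 101731535 to 101734269, ENSMUSG00000050232), fell by a smaller step. The elemental libraries held 35.1, 53.2 and 77.1 CPM, against 66.7, 75.2 and 98.9 CPM in the conventional libraries. Of the elemental libraries, replicate 3 alone reached into the conventional range. The log2 fold change was -0.55 ± 0.17 (1.46-fold lower, edgeR adjusted p = 0.0361). It was no longer called when elemental replicate 1, 2, 5 or 6, or conventional replicate 1, 4 or 5, was left out, and adjusted p over the 12 left-out libraries ran from 0.0106 to 0.0773.

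The chemokine genes did not move alike in value. Ccl5, or RANTES, an attractant of T cells and monocytes that effector T cells make in quantity (chromosome 11, 83525778 to 83530518, ENSMUSG00000035042), had 31.8, 52.3 and 66.1 CPM on the elemental diet, against 95.1, 119.0 and 253 CPM on the conventional diet. The groups did not overlap, and conventional replicate 5 stood above the rest of its group. Ccl5 fell by 1.48 ± 0.26 on the log2 scale (2.79-fold, edgeR adjusted p = 0.00297), and the log2 fold change was between -1.58 and -1.23 with each library left out in turn. Ccl4, or MIP-1 beta, a related chemokine gene 132065 bp from Ccl5 (chromosome 11, 83662584 to 83664683, ENSMUSG00000018930), had 3.30, 4.82 and 9.15 CPM on the elemental diet and 4.06, 4.97 and 7.14 CPM on the conventional diet. All 6 conventional libraries lay inside the elemental range. The log2 fold change of Ccl4 was 0.05 ± 0.25 with a 95% interval from -0.48 to 0.58 (edgeR adjusted p = 0.903), and its sign changed with the test used and without conventional replicate 1 or elemental replicate 5.

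All 3 granzyme genes fell on the elemental diet, with different firmness. Gzmb, the granzyme that cleaves caspases in target cells (chromosome 14, 56258838 to 56262260, ENSMUSG00000015437), had 3.80, 9.91 and 34.0 CPM in elemental libraries, against 32.6, 63.3 and 92.9 CPM in conventional libraries. Elemental replicate 1 was the highest of its group and passed conventional replicate 1 alone. Gzmb fell by 2.06 ± 0.48 (4.17-fold, edgeR adjusted p = 0.0160), with adjusted p from 0.00387 to 0.0412 over the 12 left-out libraries. Gzmk (chromosome 13, 113171608 to 113225908, ENSMUSG00000042385) had 5.05, 9.11 and 16.3 CPM on the elemental diet and 15.9, 21.2 and 30.4 CPM on the conventional diet. Elemental replicate 4 alone reached the conventional range, at its lower end. Gzmk fell by 1.14 ± 0.28 (2.21-fold, edgeR adjusted p = 0.0142), with adjusted p from 0.00758 to 0.0331 over the 12 left-out libraries. The gene model of Gzmk spans the gene Esm1.

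Gzma, the most abundant of these granzymes (chromosome 13, 113093825 to 113100981, ENSMUSG00000023132), lies 70626 bp from Gzmk. It had 24.4, 58.1 and 257 CPM on the elemental diet, against 171, 276 and 563 CPM on the conventional diet. Elemental replicate 1, at 257 CPM, was inside the conventional range, and the other elemental libraries held 122 CPM or less. Gzma changed by -1.84 ± 0.57 on the log2 scale (3.59-fold lower, edgeR adjusted p = 0.0497). Its call was lost without any 1 of the other 11 libraries and kept without elemental replicate 1 (-2.47 ± 0.46, adjusted p = 0.00941), so that adjusted p ran from 0.00941 to 0.102. Nkg7, which codes for a membrane protein of cytotoxic granules (chromosome 7, 43437073 to 43438249, ENSMUSG00000004612), had 33.3, 41.4 and 48.1 CPM on the elemental diet and 29.4, 52.9 and 75.0 CPM on the conventional diet. All 6 elemental libraries lay inside the conventional range. Nkg7 was not called (-0.34 ± 0.19, edgeR adjusted p = 0.220).

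**Figure D2:**
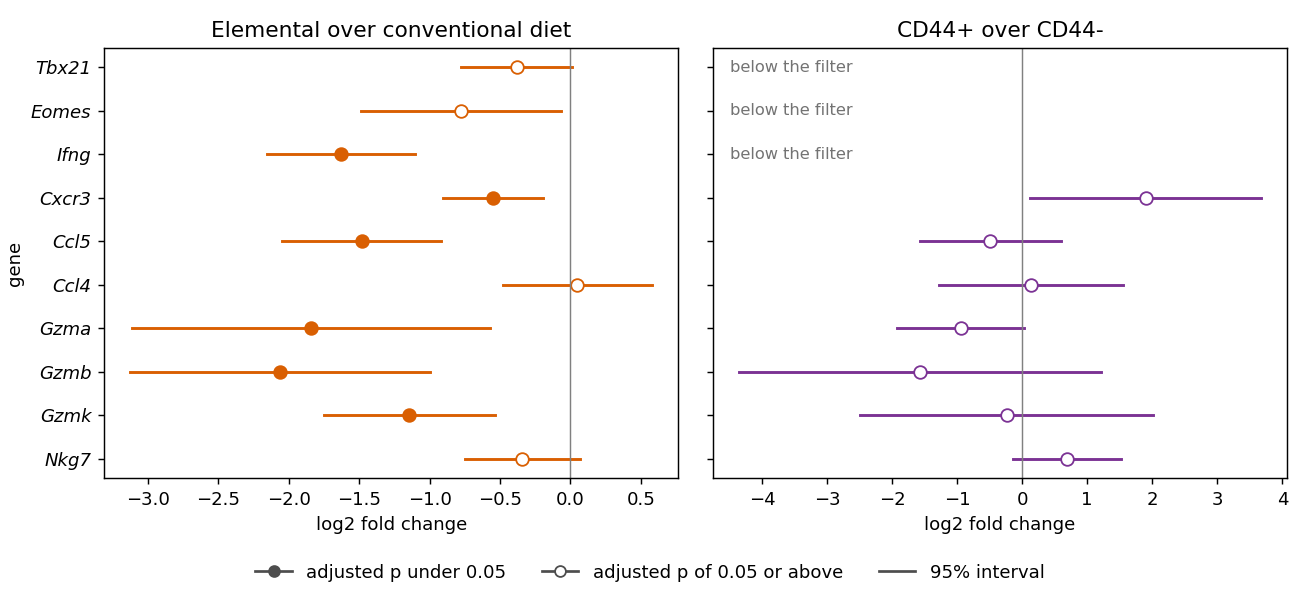
Log2 fold change of each gene with its 95% interval, for the elemental over the conventional diet (left panel, n = 6 each) and for CD44+ over CD44- cells (right panel, n = 7 each); filled points have an edgeR adjusted p under 0.05. The 6 filled points are all on the diet panel and run from -2.06 (Gzmb) to -0.55 (Cxcr3), and 3 genes on the CD44 panel were below the filter on low counts.

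Markers of other cell types moved between the diets too. The sum of 12 alpha-beta T cell genes was 4291 to 4865 CPM on the elemental diet and 4676 to 5306 CPM on the conventional diet. Of these 12, 5 were called lower, among them the sort marker Cd4 (-0.56 ± 0.16, edgeR adjusted p = 0.0250). Cd44 had 71.7 to 121 CPM on the elemental diet and 113 to 153 CPM on the conventional diet. The CD8 genes Cd8a and Cd8b1 summed to 31.2 to 63.8 CPM on the elemental diet and to 35.4 to 70.5 CPM on the conventional diet. Cd8b1 was called higher on the elemental diet (0.54 ± 0.17, edgeR adjusted p = 0.0366), while Cd8a was not called (-0.63 ± 0.27, adjusted p = 0.122). Cd8a was highest in the libraries that also led their groups in Gzma and Gzmb, at 36.1 CPM in elemental replicate 1 and 56.4 CPM in conventional replicate 5. Itgae (89.5 CPM) and Cd160 (42.7 CPM) were also highest of their group in conventional replicate 5, but not in elemental replicate 1. There Itgae had 33.1 CPM, where the group reached 46.4 CPM, and Cd160 had 26.1 CPM, where it reached 30.8 CPM. Cd8b1 was highest in neither library. It had 27.7 CPM in elemental replicate 1, where the group reached 30.1 CPM, and 14.1 CPM in conventional replicate 5, where it reached 20.4 CPM. Elemental replicate 1 and conventional replicate 5 led their groups in Gzma and Gzmb. Leaving them out is therefore no separate test of those 2 genes. Without these 2 libraries, an alternative chosen after the data were seen, 5 of the 10 genes were called lower. Gzma (-2.25 ± 0.44, adjusted p = 0.0160) and Gzmb (-2.35 ± 0.40, adjusted p = 0.00670) were among them. Cxcr3 was then not called (-0.42 ± 0.16, adjusted p = 0.123).

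Of 13 markers of NK and innate lymphoid cells, summing to 163 to 299 CPM on the elemental diet and 127 to 191 CPM on the conventional diet, 11 were tested. Klrb1c fell (-0.94 ± 0.13, edgeR adjusted p = 3.64e-04), while Fcer1g and Tyrobp, which myeloid cells express as well, rose. Ncr1, which defines NK cells, had at most 1.81 CPM on the elemental diet and 0.973 CPM on the conventional diet. Among the gamma-delta and intraepithelial T cell genes, summing to 48.7 to 93.1 CPM on the elemental diet and 63.1 to 139 CPM on the conventional diet, Kit rose, Blk fell and the receptor constant genes had no exon model in the tables. Of 12 myeloid markers 11 rose (910 to 1782 CPM summed on the elemental diet, 449 to 609 CPM on the conventional diet), and of 15 epithelial markers 6 rose (1144 to 2398 CPM on the elemental diet, 93.7 to 1324 CPM on the conventional diet). All 5 germinal centre B cell markers fell (27.7 to 38.5 CPM on the elemental diet, 79.1 to 157 CPM on the conventional diet). Of 9 B cell markers 2 fell (1486 to 2434 CPM on the elemental diet, 1215 to 2381 CPM on the conventional diet). The part of these cell types in the diet differences of the Th1 and granzyme genes was not tested.

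The other genes of the pathway, 47 in 5 lists, did not fall as a block. Of the 43 tested, 8 rose and 4 fell on the elemental diet, where 9.68% of all genes tested rose and 7.75% fell. Among input receptors and signalling genes, Ifngr1 (0.44 ± 0.11) and Ifngr2 (0.71 ± 0.17), the chains of the interferon gamma receptor, rose. Il12rb2, the interleukin 12 receptor chain of Th1 cells, fell (-2.57 ± 0.70, edgeR adjusted p = 0.0213) and was low throughout, at 0 to 0.983 CPM on the elemental diet and 1.35 to 2.48 CPM on the conventional diet. Jak2, the kinase at that receptor, had 12.8, 18.9 and 25.6 CPM on the elemental diet against 23.7, 36.7 and 51.6 CPM on the conventional diet, and fell by 0.98 ± 0.19 (adjusted p = 0.00341). The other 7 genes of that list were not called, and 0 of 8 tested genes were called in the list of Th1 transcription factors. The receptor gene Cxcr6 (0.35 ± 0.11) and the cytokine gene Lta (0.41 ± 0.13) rose.

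Of 12 tested granule genes, Lamp1 (0.30 ± 0.07) and Ctsc (0.30 ± 0.09), a lysosomal membrane protein and the protease that activates granzymes, rose on the elemental diet. Stx11 (-0.64 ± 0.12) and Rab27a (-0.35 ± 0.10), which take part in granule release, fell. Of the ligands of the Cxcr3 receptor, Cxcl9 rose (1.53 ± 0.46, edgeR adjusted p = 0.0316), at 2.06, 3.83 and 10.5 CPM on the elemental diet against 0.547, 1.46 and 2.70 CPM on the conventional diet. These lists' median log2 fold changes lay between -0.20 and 0.68, beside -0.96 for the 10 genes. The count of pathway genes called ranged from 7 to 17 with each library left out in turn.

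Per length, as TPM (exon reads over exon length, scaled to the same total in each library), Gzma and Ccl5 were the most abundant of the 10 genes in CD4+ cells of both diets. On the elemental diet Ccl5 came first, with a median of 127 TPM (69.6 to 179), and Gzma second, with 75.1 TPM (26.3 to 327). On the conventional diet Gzma came first, with a median of 399.9 TPM (289 to 881), and Ccl5 second, with 318 TPM (255 to 748). Neither order exceeded the spread between libraries. Nkg7 and Cxcr3 followed in both, at 56.4 and 36.2 TPM on the elemental diet and 77.4 and 62.3 TPM on the conventional diet. Eomes was the lowest of the 10, at 1.36 TPM on the elemental diet and 2.72 TPM on the conventional diet. Neighbours in the order had separate ranges at 2 places on the elemental diet (Cxcr3 over Ccl4, and Tbx21 over Ifng) and at 3 on the conventional diet (Ccl5 over Nkg7, Gzmb over Gzmk, and Gzmk over Ccl4).

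Gzma made up most of the summed TPM of the 3 granzymes on both diets. Its share was 69.4%, 80.3% and 90.3% on the elemental diet (lowest, median and highest), against 80.3%, 84.9% and 87.5% on the conventional diet. Gzmk's share was 1.29%, 8.84% and 23.1% on the elemental diet, against 2.35%, 4.52% and 5.58% on the conventional diet. The lowest Gzmk share and the highest Gzma share were both in elemental replicate 1, and the other 5 elemental libraries had Gzmk shares above every conventional library. The summed level of the 3 granzymes was 37.9 to 363 TPM on the elemental diet and 347 to 1006 TPM on the conventional diet.

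**Figure D3:**
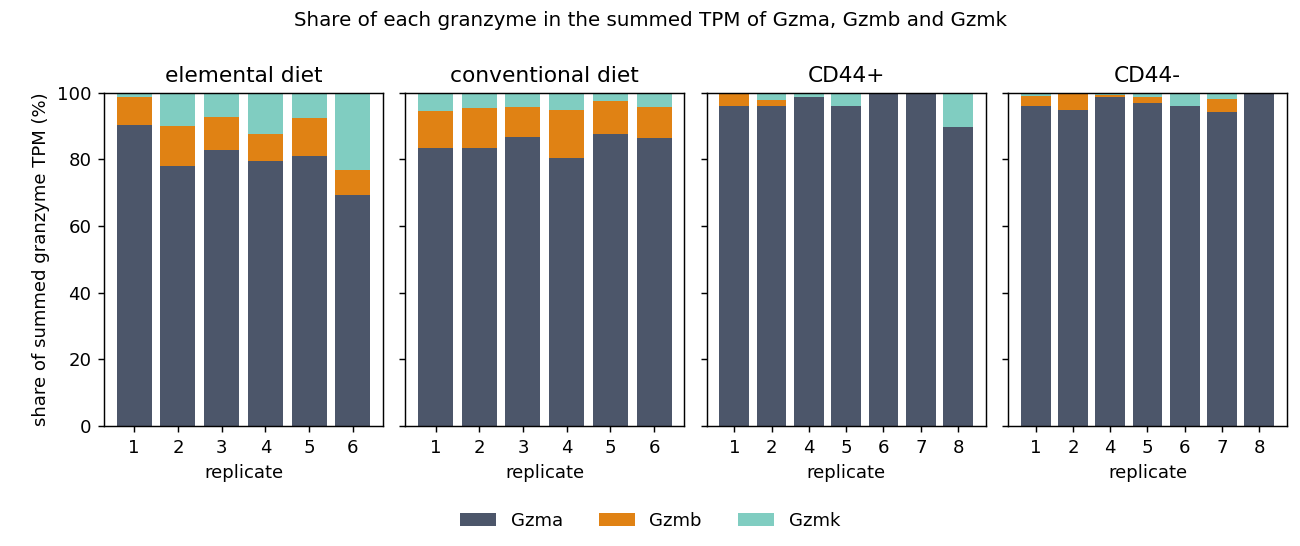
Share of Gzma, Gzmb and Gzmk in their summed TPM, in percent, for each library of the elemental diet, the conventional diet, CD44+ cells and CD44- cells; each bar is 1 library, numbered by replicate. Gzma takes 69.4% or more in every library, and the shares of Gzmb and Gzmk vary between libraries of the same group.

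In the CD44 comparison no gene of the 10 was called by edgeR. At an unadjusted p under 0.05, 1 gene was higher (Cxcr3) by edgeR, 1 by DESeq2 and 0 by limma-voom. All 10 genes overlapped between the groups, where 0.396% of all genes tested lay higher and 0.36% lower in CD44+ cells with no overlap. Libraries of 1 group differed widely: the median SD of log2 CPM over the 7 tested genes was 0.81 in CD44+ and 1.91 in CD44- libraries, beside 1.36 in CD44+ and 1.41 in CD44- libraries over all genes tested. Over all 10 genes it was 0.48 in elemental and 0.44 in conventional libraries, beside 0.29 in elemental and 0.31 in conventional libraries over all genes tested.

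Cxcr3 had 5.27, 107.9 and 278 CPM as the lowest, median and highest of the CD44+ libraries, against 2.59, 7.59 and 100.2 CPM in the CD44- libraries. The CD44+ libraries were high in 5 of 7 and low in replicates 4 and 8, and the CD44- libraries were low apart from replicates 1 and 5. The log2 fold change was 1.90 ± 0.85 (SE), with a 95% interval from 0.13 to 3.67 (edgeR adjusted p = 0.338). When all 4 groups shared 1 fit, Cxcr3 was called higher in CD44+ cells (2.20 ± 0.66, adjusted p = 0.0246). That fit estimates the spread of a gene over the diet libraries too, where Cxcr3 varied less. It called 1748 of all genes for CD44, against 64 when the CD44 groups were fitted alone.

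Among the chemokines, Ccl5 had 234, 391 and 547 CPM in CD44+ cells, against 25.0, 588 and 1023 CPM in CD44- cells. No CD44- library lay inside the CD44+ range: 5 stood above it and replicates 2 and 6 below. The fitted log2 fold change was -0.49 ± 0.52 (95% interval -1.57 to 0.59, edgeR adjusted p = 0.760), and the mean of log2 CPM differed by 0.17 in the other direction. Ccl4 had 8.01, 22.2 and 42.2 CPM in CD44+ cells and 1.17, 23.4 and 47.3 CPM in CD44- cells (0.13 ± 0.68, interval -1.29 to 1.55, adjusted p = 0.959). CD44- replicate 2 was the lowest library, and without it the log2 fold change was -0.09.

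Gzma had 339.6, 728 and 1541 CPM in CD44+ cells, against 197, 1711 and 3593 CPM in CD44- cells. All 7 CD44+ libraries lay inside the CD44- range, and 4 CD44- libraries lay above every CD44+ library. Gzma differed by -0.94 ± 0.47 on the log2 scale, with a 95% interval from -1.92 to 0.04 (edgeR adjusted p = 0.399). Nkg7 had 329.8, 638 and 827 CPM in CD44+ cells and 36.0, 399 and 546 CPM in CD44- cells, where replicate 2 was the lowest by a wide margin. Its log2 fold change was 0.69 ± 0.40 (interval -0.14 to 1.52, adjusted p = 0.483). In both groups Gzma, Ccl5 and Nkg7 were the 3 most abundant genes per length, with medians of 908, 921 and 891 TPM in CD44+ cells and 2053, 1272 and 593 TPM in CD44- cells.

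Gzmb and Gzmk were present at high level in some libraries and near 0 in others of the same group. Gzmb had 0.120, 0.576 and 87.7 CPM in CD44+ cells, where replicates 1 and 2 were high and the other 5 held 1 to 12 reads. In CD44- cells it had 0.483, 20.6 and 158 CPM, and replicates 6 and 8 held 4 reads each. The log2 fold change was -1.57 ± 1.33 (interval -4.35 to 1.22, edgeR adjusted p = 0.681). Gzmk had 0.633, 23.9 and 92.8 CPM in CD44+ cells, against 0.167, 47.1 and 56.5 CPM in CD44- cells. It was low in CD44+ replicates 1, 6 and 7 and in CD44- replicates 2 and 8, and its log2 fold change was -0.24 ± 1.08 (interval -2.49 to 2.01, adjusted p = 0.952). CD44+ replicate 1, the highest in Gzmb, was among the lowest in Gzmk, while CD44+ replicate 2 (31.6 CPM of Gzmb and 41.3 CPM of Gzmk) and CD44- replicates 1, 5 and 7 were high in both.

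**Figure D4:**
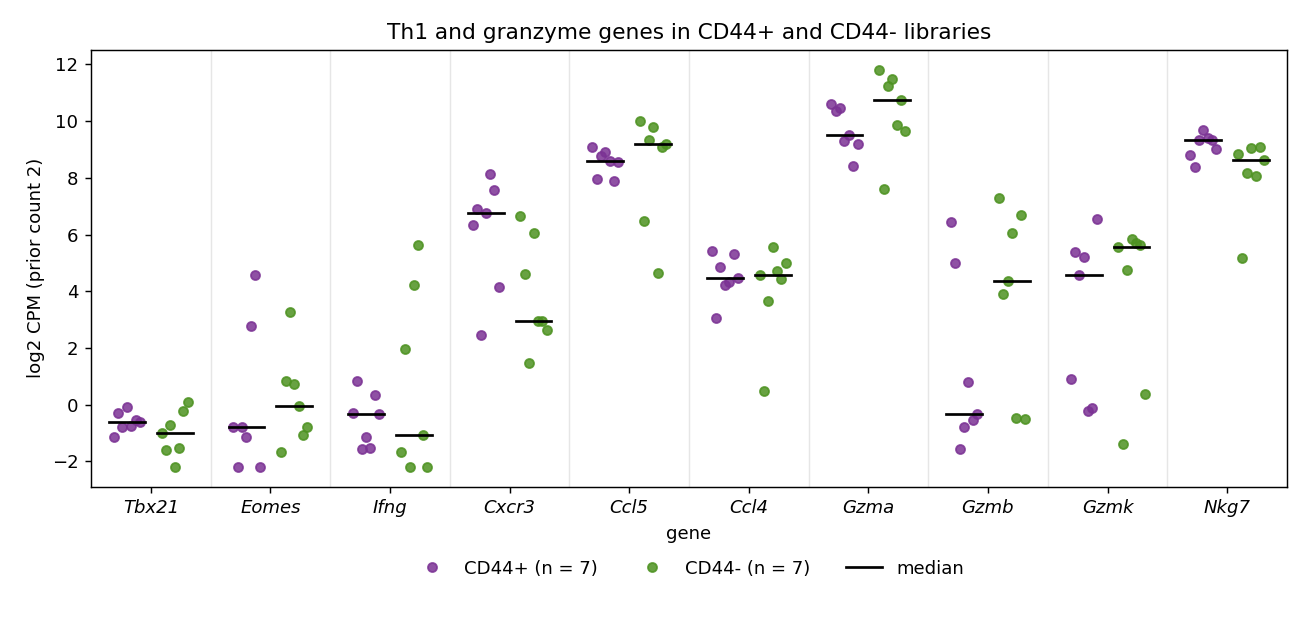
Level of each gene in each CD44+ (left of each pair, n = 7) and CD44- library (right, n = 7), as log2 CPM with a prior count of 2; points are libraries and bars are medians. All groups overlap, and Gzmb, Gzmk, Ifng and Eomes have libraries near the bottom of the scale beside libraries well above it within 1 group.

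Tbx21, Ifng and Eomes were below the filter on low counts in the CD44 libraries and were compared with an exact permutation test of mean log2 CPM, two-sided, whose smallest possible p is 0.000583. Ifng had 1 to 16 exon reads in CD44+ libraries (0.120, 0.576 and 1.58 CPM) and 0 to 390 reads in CD44- libraries (0, 0.257 and 49.3 CPM). CD44- replicates 5 and 6 were high at 18.4 and 49.3 CPM, replicate 2 had 3.67 CPM, and replicates 4 and 8 held no read, which allows up to 0.388 and 0.362 CPM at 3 reads. The difference in mean log2 CPM was -1.19 (exact permutation p = 0.379). When all 4 groups shared 1 fit, which tests genes kept in any group, Ifng was called lower in CD44+ cells. That fit estimates the spread over the diet libraries too, where Ifng varied less, so the call does not rest on the spread of the CD44 libraries alone.

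Eomes had 0, 0.355 and 23.6 CPM in CD44+ libraries, where replicates 6 and 7 held 53 and 203 reads and the others at most 3. In CD44- libraries it had 0.0960, 0.759 and 9.44 CPM, with replicate 4 the highest (difference in mean log2 CPM -0.14, exact permutation p = 0.910). The 0 reads of CD44+ replicates 2 and 8 allow up to 0.297 and 0.432 CPM. Tbx21 had 2 to 6 exon reads in CD44+ libraries and 0 to 7 in CD44- libraries (difference 0.42, exact permutation p = 0.231). Most of its reads there were intronic, 658 of 706 or 93.2%, against 8.67% in the diet libraries. The intron share of Ccl4 was 21.5% in the CD44 libraries and 1.84% in the diet libraries. That of Eomes was 16.5% in the CD44 libraries and 0.26% in the diet libraries, but 76 of its 77 intronic reads in the CD44 libraries were in CD44+ replicate 7, and without it the share was 0.53%. The tables do not say whether reads were assigned by strand, so intronic reads may belong to other transcripts of the same region.

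Of the 47 other pathway genes 37 were tested between CD44+ and CD44- cells. Of these 2 were called higher, where 0.3% of all genes tested were. Id2, a transcriptional regulator of effector T cells and innate lymphoid cells, had 524, 649 and 1023 CPM in CD44+ cells, against 154, 235 and 508 CPM in CD44- cells (1.34 ± 0.30, edgeR adjusted p = 0.0391). Srgn, the proteoglycan that holds granzymes in the granule, had 3187, 3633 and 5376 CPM in CD44+ cells, against 718, 1764 and 1859 CPM in CD44- cells (1.24 ± 0.22, adjusted p = 0.00912). Neither gene overlapped between the groups. In 10 of the 14 fits that left out 1 library, 1 pathway gene was called. Of the cell type markers, Tyrobp (2.88 ± 0.51, adjusted p = 0.00912) and H2-Aa (1.74 ± 0.37, adjusted p = 0.0321) were called higher in CD44+ cells. The NK and innate lymphoid markers summed to 388 to 983 CPM in CD44+ cells and 76.3 to 437 CPM in CD44- cells, and B cell markers to 4899 to 19916 CPM in CD44+ and 2558 to 11540 CPM in CD44- cells. The CD8 genes summed to 49.5 to 162 CPM in CD44+ and 26.7 to 131 CPM in CD44- cells. Each was near 0 in some libraries and high in others of the same group, as were Gzmb and Gzmk. Cd8a was under 1 CPM in 4 CD44+ and 3 CD44- libraries and reached 72.6 and 80.2 CPM. Cd8b1 was under 1 CPM in 1 CD44+ and 2 CD44- libraries and reached 93.9 and 51.1 CPM. Ncr1 and Klri2 had 3 reads or fewer in every CD44 library. The part of these cell types in the values of the Th1 and granzyme genes was not tested.

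The genes whose pattern was most like those of Ifng, Ccl5 and Gzma were sought among 7139 or 7140 genes tested in both comparisons, by the root mean square difference in log2 CPM over the 26 libraries, each centred on its pair of groups. For Gzma the nearest was Ccl5 (1.01), followed by Il21 (1.04), mt-Nd4l (1.05), Zmynd8 (1.07) and Slk (1.09), against a median of 1.66 over all candidates. For Ccl5 they were Hmgb2 (0.81), Cog4 (0.82), Ppp1r16b (0.85), Gm42715 (0.86) and Mrpl18 (0.86), against 1.54. For Ifng they were Braf (0.92), Orc2 (1.02), Zbtb2 (1.06), Rnf40 (1.08) and Sqle (1.15), against 2.09. A gene that did not vary at all would lie at 1.27 from Gzma, 1.15 from Ccl5 and 1.78 from Ifng, so the likeness is loose. Between the diets, the log2 fold changes of the 5 genes nearest to Ccl5 ran from -0.79 (Gm42715) to 0.09 (Mrpl18), against -1.48 for Ccl5. Only Gzma had another of the 10 genes among its nearest 5. Tbx21, Ifng and Eomes could not appear there, since they were below the filter in the CD44 comparison.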

How the data were processed

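RNA sequencing gave 1 table per library, deposited by the authors, with whole-number counts of reads per gene split into exon, intron and gene reads. Per the submitters' processing notes the build was GRCm38. Which aligner and counter were used is not given in the sources used here. All exon reads were analysed, and CPM (relative to TMM-scaled library sizes) and TPM were computed from them. The deposited TPM and RPKM were not used. Intervals and limits at 3 reads cover counting error or library spread only, and reads are not independent molecules.

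The groups of each comparison were fitted separately with edgeR 4.0.16 in R 4.3.3 (filterByExpr with a minimum count of 10 and total of 15, TMM, robust quasi-likelihood test, Benjamini-Hochberg adjusted p under 0.05). The standard error is the log2 fold change over the square root of F, and 95% intervals use the t distribution with the fit's degrees of freedom. Log2 CPM used a prior count of 2. Alternatives used DESeq2 1.42.0 size factors or tests, limma 3.58.1 voom with quality weights, no filter, unique exon or gene reads, a replicate block, all 4 groups together and left-out libraries. Tables and figures used Python 3.11.15, pandas 2.3.3, scipy 1.17.1, numpy 2.4.6 and matplotlib 3.10.9. The scripts were tested on simulated data.

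The 10 genes and all lists were chosen with earlier results of these data known. All 10 genes are named, pathway genes when called (at most 6 a list, apart from 1 gene not reported here), markers freely, and the 5 genes nearest to Ifng, Ccl5 and Gzma. No 2 libraries within a group had identical counts (lowest chi-square per degree of freedom 11.9).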

Additional observations from a re-analysis of the deposited data

Results flagged for a closer look

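Within each group, the highest and lowest library of each of the 10 genes was set against the rest by Dixon's gap test. Of 40 gene and group pairs 6 held a library that stood apart. The gaps were taken on CPM, and chance marks about 1 in 20 groups only where values are normally distributed. In the CD44 groups some genes, such as Gzmb and Ifng, had a few high libraries beside many low ones. The count of 6 therefore cannot be compared with that rate, and no excess of such libraries is read from it. On the conventional diet, Tbx21 was low in replicate 3 (5.93 CPM, with the next library at 8.92 CPM), and Ccl5 was high in replicate 5 (253 CPM, next 143 CPM). In CD44+ cells, Gzmb was high in replicate 1 (87.7 CPM, next 31.6 CPM) and Eomes in replicate 7 (23.6 CPM, next 6.71 CPM). In CD44- cells, Ifng was high in replicate 6 (49.3 CPM, next 18.4 CPM) and Eomes in replicate 4 (9.44 CPM, next 1.56 CPM).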

How the results depend on the processing

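Ifng, Ccl5, Gzmb and Gzmk stayed called in all 12 fits that left out 1 diet library, in which 4 to 6 genes were called lower. Fitting all 4 groups together called 0 of the 10 genes and 2 of all genes between the diets, and 1 of the 10 higher and 1 lower in CD44+ cells with 1748 of all genes. Counts of all genes called between the diets were 4095 with limma-voom, 3969 without conventional replicate 6 and elemental replicate 3, 1030 without conventional replicate 5 and elemental replicate 1, and 1299 (conventional replicate 4) to 3865 (conventional replicate 6) with 1 library left out, with 1316 for elemental replicate 4, against 2081. Counts of all genes called for CD44 were 101 with total gene reads, 392 with DESeq2 and 36 to 87 with 1 library left out (36, 37 and 36 for CD44+ replicates 5, 6 and 7, and 41 for CD44- replicate 4), against 64. Pathway genes called between the diets were 4 without conventional replicate 5 and elemental replicate 1, 0 with all groups together and 7 to 17 with 1 library left out, against 12. For CD44 they were 1 without the filter, 8 with all groups together and 1 to 2 with 1 library left out, against 2. Gzma also lost its call with DESeq2 size factors (adjusted p = 0.0504) without the filter (0.0719) and with elemental replicate 3 and conventional replicate 6 both left out (0.0748). The log2 fold change of Ccl4 turned to -0.0502 with limma-voom and -0.000443 with the replicate block, and ran from -0.169 to 0.163 between the diets and -0.0934 to 0.407 for CD44 with 1 library left out. Same-numbered libraries gave correlations of their deviations from -0.142 to 0.271 between the diets (1 of 6 best matched to its own number) and from -0.0423 to 0.115 for CD44 (1 of 7), and the labels do not say that a number marks a shared animal or day, so the numbers were not used as pairs. The replicate block called 4 of the 10 genes lower on the elemental diet, without Gzma (-2.25 ± 0.79, adjusted p = 0.112) and Gzmb (-2.32 ± 0.68, 0.0746), and 37 of all genes for CD44. The causes were not tested. With CPM in place of TPM 0 of the 10 genes kept their place in the order on the elemental diet, 3 on the conventional diet, 3 in CD44+ cells and 5 in CD44- cells. In the CD44 groups Tbx21, Ifng and Eomes had 3 reads or fewer in many libraries, so their values there are imprecise. Whether depth, RNA input or a low level lay behind these counts was not tested.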
